A study of Mus musculus with 53 samples.

Results

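The cytosolic ribosomal protein genes are those whose products, with the ribosomal RNAs, build the large (Rpl) and small (Rps) subunits of the ribosome that translates nuclear messages. Members were taken by symbol: Rpl or Rps followed by a number, with or without a final a or x, and Rplp0, Rplp1, Rplp2 and Rpsa. This gave 76 genes, 46 of the large and 30 of the small subunit, each a protein-coding gene of the GENCODE annotation. The rule further asked for a value above 1 in at least 3 libraries of a table, which 74 of 76 listed members met in the YM-155 experiment (24360 genes listed, 13826 kept), 74 of 75 in the antibody experiment (20185 listed, 13840 kept) and 73 of 75 in the time course (19176 listed, 13478 kept). A total of 73 members passed in all 3. Rps3a1, Fau and Rack1 encode ribosomal components too, but their symbols lie outside the rule, so they are described beside the members.

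Bulk RNA was sequenced from 53 mouse tumours. Their source was TA3Hauschka, a murine mammary tumour line engineered to be without (WGD-) or with (WGD+) whole genome doubling. Cells in Matrigel were placed in the inguinal fat pads of females aged 6 weeks. In the YM-155 experiment both forms grew in immune-competent A/J mice or in NSG mice. The labels give the latter as NOD mice carrying the Prkdc scid and Il2rg tm1Wjl alleles, which leave them without mature T, B and natural killer cells, together with a transgene for human IL3, CSF2 and KITLG under the CMV promoter. Hosts were given either vehicle or YM-155, a compound that suppresses the apoptosis inhibitor survivin, over 14 days, giving 8 groups of 3 libraries. In the antibody experiment A/J hosts were given isotype control, anti-CD8 or anti-PD-L1 over 14 days, with 3 libraries a group except WGD- anti-CD8, which has 2. In the time course untreated tumours in A/J mice were taken at day 8 or day 14, 3 libraries a group. In 12 libraries of the YM-155 experiment the genotype field contradicts the sample title, and the titles were used. The labels do not say that replicates came from separate animals or how many clones each form represents, so p-values rest on the spread among these libraries, which may be technical. The 2 hosts differ in strain and transgene as well as in immune cells, which cannot be told apart here.

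Ribosomal protein genes are among the most highly transcribed of all genes in growing cells, and their products are made in near-equal amounts because each ribosome holds a single copy of most of them. Their messages begin with a 5' terminal oligopyrimidine tract (TOP), a C followed by an unbroken run of C and T bases, through which LARP1 and the mTORC1 kinase control how strongly they are translated. That control acts on translation and on message stability, so RNA levels of these genes report only part of it. Surplus ribosomal proteins outside the ribosome, above all Rpl5 and Rpl11, bind Mdm2 and can raise p53.

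Start-site sequences are shown for 6 members named in later comparisons whose window has a TOP-like run at the annotated start, and for Rpl13a, Rpl18 and Rpl41, which were called between hosts in WGD- vehicle tumours and have none there. Rps21 has a window of each kind. They come from the RefSeq promoter table (GRCm38.p6), which held an entry for 56 of 76 members, and run from 10 bases before to 20 bases from the annotated start, 5' to 3'. Capitals mark the run of C and T that begins with a C at the annotated first transcribed base.
Rps6, chr4:86857348-86857377, minus strand: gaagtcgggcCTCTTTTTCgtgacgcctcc
Rpl28, chr7:4792955-4792984, plus strand: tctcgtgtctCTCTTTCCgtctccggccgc
Rpl35, chr2:39005112-39005141, minus strand: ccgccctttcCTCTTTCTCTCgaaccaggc
Rpl38, chr11:114668570-114668599, plus strand: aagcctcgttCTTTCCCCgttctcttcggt
Rplp2, chr7:141447641-141447670, plus strand: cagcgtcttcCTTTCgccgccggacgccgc
Rps21, chr2:180257369-180257398, plus strand: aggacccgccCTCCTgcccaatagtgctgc
Rps21, other annotated start, chr2:180257439-180257468, plus strand: agtgagcaggtaggcctcggtgcgggctgt
Rpl13a, chr7:45128726-45128755, minus strand: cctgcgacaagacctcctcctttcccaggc
Rpl18, chr7:45718061-45718090, plus strand: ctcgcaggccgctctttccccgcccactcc
Rpl41, chr10:128549149-128549178, minus strand: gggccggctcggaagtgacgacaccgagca
A run of at least 5 such bases beginning with a C exactly at the annotated start stood in 13 of 66 member windows (19.7%), against 2.51% of all 32851 windows of the table. When the run could begin anywhere within 20 bases of the annotated start on the transcribed strand, 75.8% of member windows and 49.1% of all windows held one. These matches describe the annotated letters, and a window without one says only that the run does not begin at that base.

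The deposited unit is log2 of CPM (counts per mega-read) plus 1, so all levels and differences below are on that scale, and differences of low genes are understated. Depth, as Mreads (mega-reads) assigned to genes, was 3.23 to 7.75 per library with YM-155 or its vehicle, 9.57 to 15.5 with antibodies and 5.25 to 12.2 over the days. Across all groups the 6 mammary epithelial markers (Krt7, Krt8, Krt18, Krt19, Epcam, Cdh1) were detected, with a summed level of 9.49 to 11.61. By their best correlation with any other library, 10 libraries stood apart: A/J WGD- vehicle 1 and 2, A/J WGD- YM-155 1, A/J WGD+ YM-155 2, WGD- isotype 2 and 3, WGD- anti-PD-L1 1 and 2, WGD- day 8 replicate 1 and WGD+ day 8 replicate 3.

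Members took 6.60% to 13.8% of the assigned reads of a library. The lowest group was NSG WGD- vehicle at 7.27% ± 0.21 (SD, n = 3), and the highest was WGD+ day 14 of the time course at 11.6% ± 0.88 (SD, n = 3). In the YM-155 experiment the NSG groups averaged 7.27% (WGD- vehicle), 7.39% (WGD- YM-155), 7.50% (WGD+ vehicle) and 9.55% (WGD+ YM-155), while the A/J groups averaged 10.6%, 9.86%, 9.69% and 9.96% in the same order. A/J WGD- vehicle was the most uneven group, with 8.39%, 13.8% and 9.66% in its 3 libraries, and its replicate 2, at 3.23 Mreads, was the shallowest library of all. In a bulk tumour a smaller number of cells of a type and less RNA per cell cannot be told apart.

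**Figure D1:**
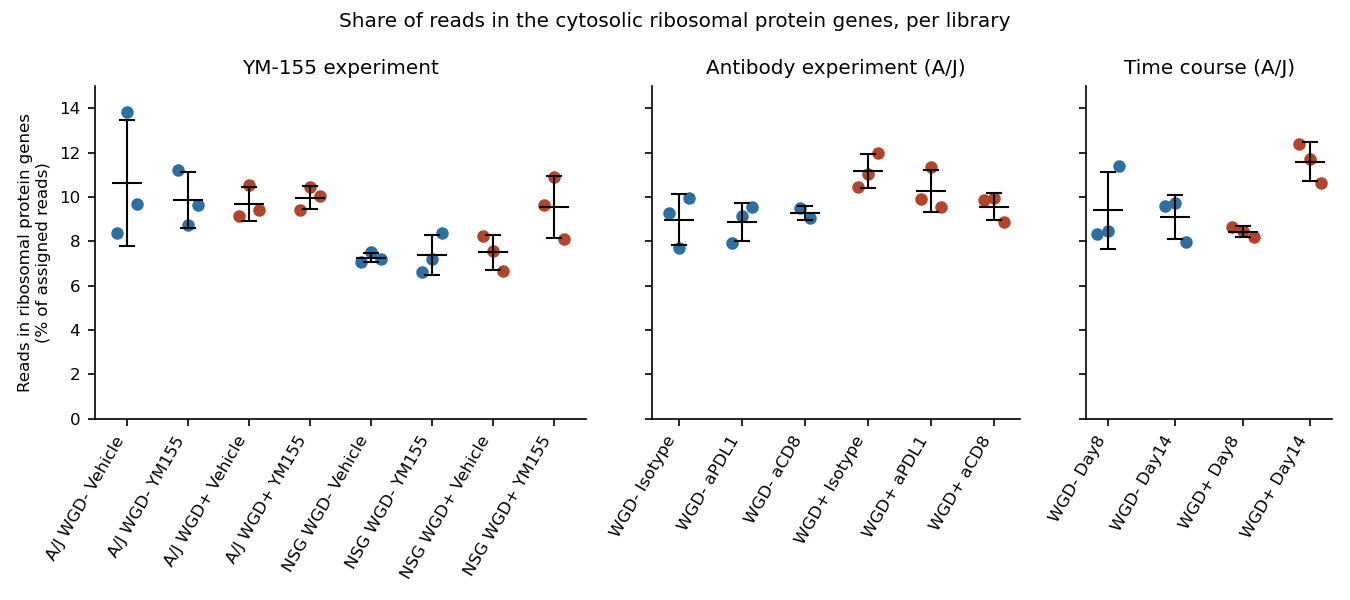
Share of assigned reads (%, y axis) that fell in the ribosomal protein genes, by group (x axis), with a point per library, WGD- in blue and WGD+ in red, and bars for mean ± SD. The first 3 NSG groups lie at or below 8.36%, and WGD+ day 14 lies between 10.6% and 12.4%, above WGD+ day 8 at 8.18% to 8.65%.

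Almost all members were among the most abundant messages. The median member stood at percentile 99.4 of the genes kept in each of the 3 experiments, and 71 members of each table lay above percentile 95. Per kilobase of coding sequence, Rpl41, which encodes the shortest protein of the ribosome, was first in every table, with a median of 20341 CPM per kilobase in the YM-155 experiment, 27955 in the antibody experiment and 23482 in the time course. Rplp1 of the stalk had 6315, 6445 and 5224. Rpl3, a core protein near the peptidyl transferase centre, had 884, 856 and 827, and Rpl29, a surface protein of the large subunit, only 204, 216 and 100.2. Untranslated parts of a message yield reads too but are left out of this divisor. Members with short coding sequences, such as Rpl41 at 75 bases, are thereby raised. By level alone Rpl41, with a median of 10.58 in the YM-155 experiment, lay below Rps2 (11.83), Rplp0 (11.58) and Rplp1 (11.08). Many members have near-identical processed pseudogenes, and how reads shared with such copies were counted is not given in the sources used here. Levels between members are therefore uncertain.

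A few members were counted at almost nothing. Rpl26 had 0 reads in all 24 YM-155 libraries, Rpl30 had at most 15 reads in any library of the 3 tables, and Rps27 at most 23. Rpl34 was kept in every table at 2 to 58 reads a library, with a median level of 2.34, 1.39 and 1.23. Values of these 4 genes are uncertain and describe the deposited counts. Just inside the value filter stood Rpl30 in the antibody table, above 1 in 3 libraries, and just outside it Rps27 there and Rpl30 in the YM-155 table, each above 1 in 2 libraries.

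The largest count of called members came from the host comparison. In WGD- vehicle tumours 49 of 74 members (66.2%) had higher levels in A/J hosts than in NSG hosts at an adjusted p under 0.05 (limma over all genes), against 16.2% of all genes tested, and 2 were lower (2.70%), against 18.3%. The median member differed by 0.71, the median gene by -0.03. In WGD+ vehicle tumours 22 of 74 (29.7%) were higher, against 7.20% of all genes, and in WGD- YM-155 tumours 21 of 74 (28.4%), against 4.77%, with none lower in either. Median differences there were 0.52 and 0.53. All 22 and all 21 were among the 49 called in WGD- vehicle tumours, and 16 were in both smaller sets. In WGD+ YM-155 tumours no member was called (0.0362% of all genes were), and the median difference was 0.05. There 2 of 74 members were under an unadjusted p of 0.05, against 1754 of 13826 genes.

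Counts depended on single libraries. The shares of all genes called in these leave-outs are not given here, so the counts show only that dependence. Without A/J replicate 2 the WGD- vehicle comparison called 32 members higher and 1 lower, and without the libraries that stand apart, which leaves 1 A/J library whose spread is taken from the other groups, 39 and 1. In WGD+ vehicle tumours the count higher fell to 4 without A/J replicate 2, 13 without A/J replicate 3, 9 without NSG replicate 2 and 4 without NSG replicate 3. For WGD- YM-155 tumours it was 2 without A/J replicate 1, 7 without A/J replicate 2, 2 without NSG replicate 1 and 3 without NSG replicate 2. Over the leave-outs the median ranged from 0.46 (without A/J replicate 2) to 0.92 (without A/J replicate 1) in WGD- vehicle tumours, from 0.41 to 0.59 in WGD+ vehicle and from 0.41 to 0.66 in WGD- YM-155 tumours.

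**Figure D2:**
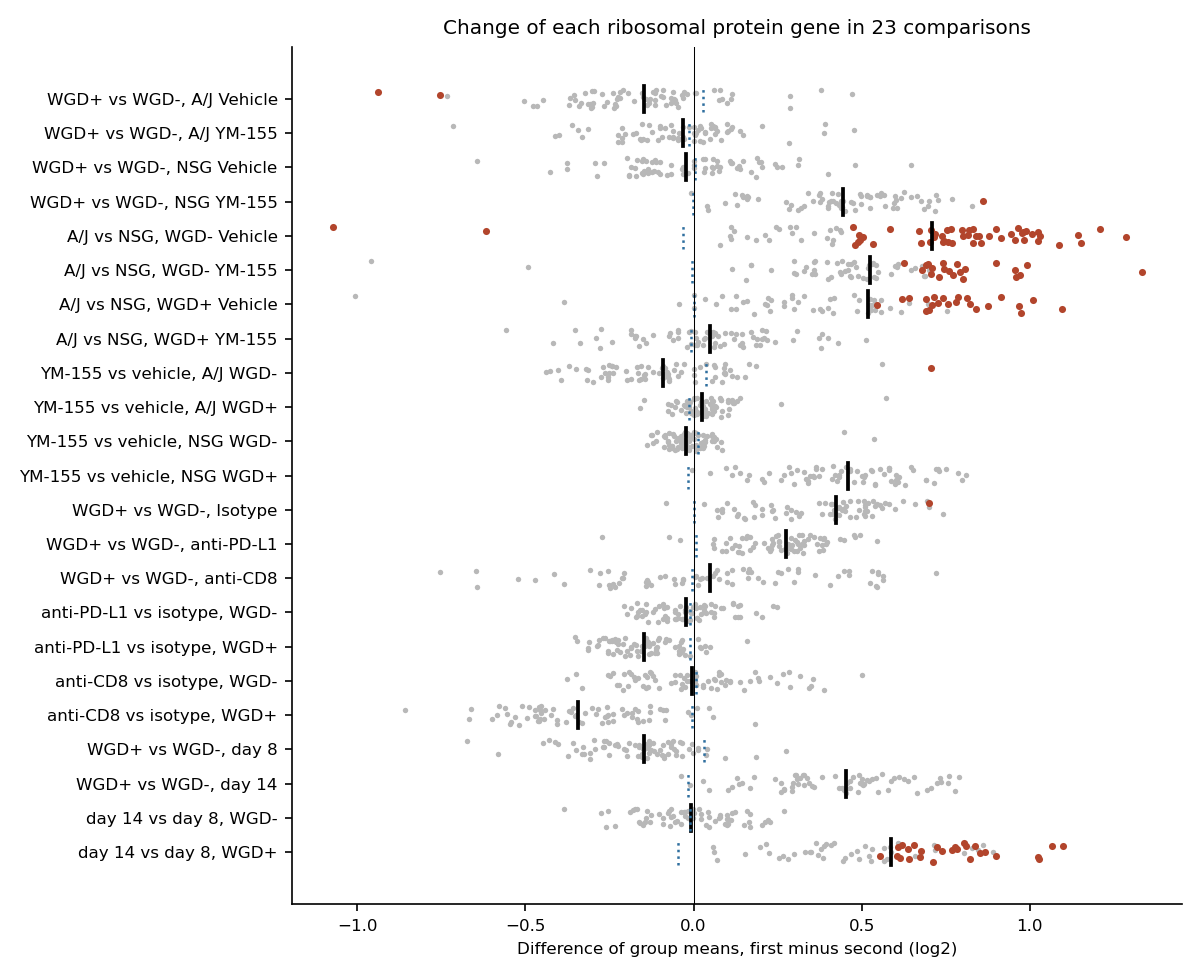
Difference of group means of each member (points, log2, x axis) in the 23 comparisons (y axis), red where the adjusted p is under 0.05. Black bars are the members' median and dotted bars the median of all genes tested; medians over 0.50 appear for A/J against NSG in 3 of 4 settings and for day 14 against day 8 in WGD+ tumours.

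Rpl13a, a large-subunit protein also known for leaving the ribosome after interferon gamma to silence inflammatory messages, had the largest host difference in WGD- tumours. Its levels in WGD- vehicle tumours were 11.34, 12.57 and 11.44 in A/J and 10.58, 10.52 and 10.40 in NSG mice, a difference of 1.29 (SE 0.24, adjusted p = 0.00053 with limma). In WGD+ vehicle tumours they were 11.31, 11.72 and 11.27 against 10.54, 10.49 and 10.36 (difference 0.97, SE 0.24, adjusted p = 0.013). In WGD- YM-155 tumours they were 11.96, 11.48 and 11.68 against 10.21, 10.42 and 10.50 (1.33, SE 0.24, adjusted p = 0.0066). No A/J library overlapped an NSG library in these 3 settings. In WGD+ YM-155 tumours the A/J values of 11.17, 11.64 and 11.64 and the NSG values of 11.19, 11.13 and 10.60 overlapped.

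Rpl28 of the large subunit led in WGD+ vehicle tumours, with 10.91, 11.16 and 10.81 in A/J against 10.09, 9.84 and 9.67 in NSG (difference 1.10, SE 0.22, adjusted p = 0.0036). The corresponding differences were 0.98 in WGD- vehicle and 0.97 in WGD- YM-155 tumours, both called. Rpl18 of the large subunit was called in all 3 settings as well, at 1.09, 0.97 and 0.80 for WGD- vehicle, WGD+ vehicle and WGD- YM-155. Rpl17, at the mouth of the exit tunnel, was called at 1.14 in WGD- vehicle and 0.74 in WGD- YM-155 tumours. The test of whether the host difference depended on the cell form, in vehicle tumours, called none of the members.

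Of the acidic stalk, through which elongation factors reach the ribosome, Rplp1 and Rplp2 were higher in A/J and Rplp0 was not called. Rplp2 was 10.58, 10.99 and 11.08 in A/J and 9.79, 10.001 and 9.79 in NSG WGD- vehicle tumours (difference 1.02, SE 0.20, adjusted p = 0.00077), with no overlap. Rplp1 differed by 0.95, 0.73 and 0.71 and Rplp2 by 1.02, 0.84 and 0.77 in WGD- vehicle, WGD+ vehicle and WGD- YM-155 tumours, all called. Under quantile scaling, an alternative that gives every library the same distribution of values, Rplp1 lost the call in all 3 settings, at 0.34, 0.39 and 0.31 (adjusted p = 0.063, 0.066 and 0.18). Rplp2 kept it at 0.58 and 0.52 in vehicle tumours and lost it in WGD- YM-155 tumours (0.36, adjusted p = 0.15). With each library left out in turn, both kept the call in 6 of 6 leave-outs in WGD- vehicle tumours, Rplp1 in 2 and 1 and Rplp2 in 4 and 2 of 6 in the other settings. Rplp0, the base of the stalk, was 11.20, 12.33 and 11.50 in A/J and 11.52, 11.41 and 11.34 in NSG WGD- vehicle tumours, where the groups overlapped (difference 0.25, adjusted p = 0.37). Its differences in the other settings were 0.22 and 0.43, not called.

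In the small subunit 22 of 30 tested members were called higher in A/J WGD- vehicle tumours, with a median of 0.75, against 27 of 44 in the large subunit, with a median of 0.52. Rps21 had 10.19, 10.89 and 10.83 in A/J and 9.22, 9.58 and 9.48 in NSG (difference 1.21, SE 0.24, adjusted p = 0.00097), without overlap. Rps14, whose loss of a copy underlies the anaemia of the human 5q- syndrome, had 11.16, 12.49 and 11.07 against 10.40, 10.43 and 10.44 (1.15, SE 0.25, adjusted p = 0.0018). Rps27a, made as a fusion to ubiquitin, differed by 1.02, and Rps28, on the mRNA exit side, by 0.90. Rps19, mutated in Diamond-Blackfan anaemia, Rps3, at the mRNA entry site, and Rpsa, also called the laminin receptor, differed by 0.76, 0.74 and 0.71, each called. Rps6, the substrate of S6 kinase, differed by 0.47 (SE 0.17, adjusted p = 0.031). Rps2, Rps4x, Rps26 and Rps27 were not called, at 0.41, 0.29, 0.08 and 0.36. Under quantile scaling Rps14 and Rps27a kept the call at 0.55 and 0.64, and Rps3, Rps19 and Rpsa lost it, at 0.16, 0.37 and 0.29 (adjusted p = 0.47, 0.13 and 0.052). Without A/J replicate 2, Rps3, Rps19, Rpsa and Rps6 were not called, at 0.32, 0.27, 0.46 and 0.24. Leaving out NSG replicate 2 also ended the calls of Rps3, Rps19 and Rps6, and leaving out NSG replicate 1 or 3 those of Rps19 and Rps6.

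Among large-subunit members with a named role, Rpl11 was called in WGD- vehicle tumours (0.68, adjusted p = 0.024) and its partner Rpl5 was not (0.42, adjusted p = 0.12). Rpl11 was 9.92, 11.25 and 10.14 in A/J and 9.80, 9.67 and 9.81 in NSG libraries, so the lowest A/J value lay just above the highest NSG value. Rpl22 (0.80), Rpl38 (0.77, with overlapping groups), Rpl36a (0.74), Rpl39 (0.72), Rpl41 (1.01) and Rpl3 (0.49) were called higher too. Rpl10, at the subunit joining surface, and Rpl10a, at the mobile L1 stalk, were not, at 0.11 and 0.29. Of the 21 calls that the naming rule selects in this comparison, 13 held under quantile scaling and 10 with each library left out in turn. Rpl3 and Rps6 lost the call and had differences of -0.0051 and -0.0092 under quantile scaling, Rpl11 and Rpl38 lost it at 0.21 and 0.63 (adjusted p = 0.23 and 0.079), and Rpl41 kept it at 0.49. Without A/J replicate 2, Rpl11, Rpl38, Rpl36a, Rpl39 and Rpl3 were not called, at 0.27, 0.56, 0.50, 0.43 and 0.36. Leaving out NSG replicate 1 ended these 5 calls too. Those of Rpl11 (NSG replicate 2), Rpl38 (A/J replicate 3 or NSG replicate 3) and Rpl3 (A/J replicate 3, NSG replicate 2 or 3) were also lost without the library given.

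The 2 members lower in A/J WGD- vehicle tumours were Rpl34 and Rpl29. Rpl29 was 5.79, 6.47 and 6.16 in A/J and 6.93, 6.70 and 6.65 in NSG (difference -0.62, SE 0.20, adjusted p = 0.021), with no overlap. Rpl34 was 1.13, 0.78 and 1.89 against 1.88, 2.51 and 2.62 (-1.07, SE 0.36, adjusted p = 0.026), with an overlap of 0.01, and rests on few reads. Neither was called between hosts in another setting, although Rpl34 differed by -1.01 in WGD+ vehicle and -0.96 in WGD- YM-155 tumours. Rpl29 lost its call without A/J or NSG replicate 1, and Rpl34 without A/J replicate 1 or 2 or NSG replicate 2 or 3.

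**Figure D3:**
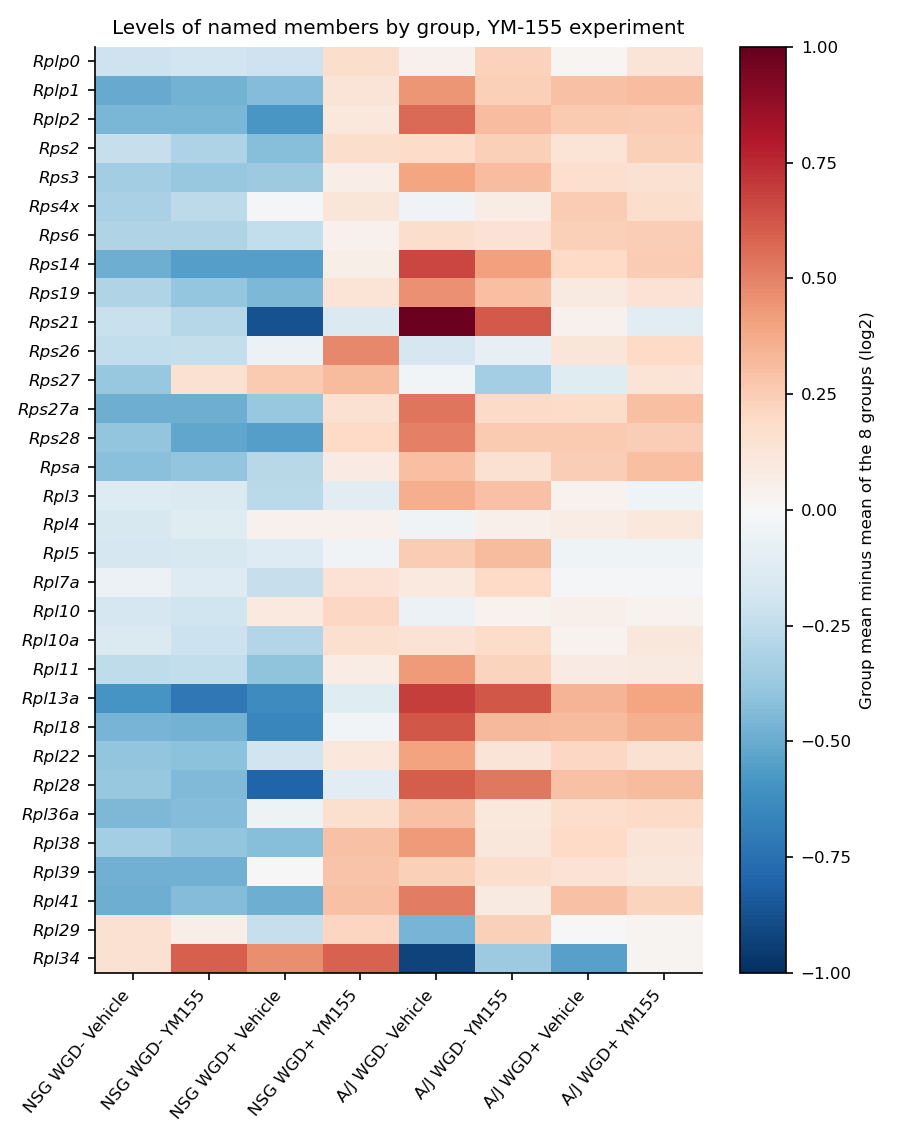
Group mean of each named member (rows) minus its mean over the 8 groups of the YM-155 experiment (colour, log2), NSG groups left and A/J groups right. Rps21 spans -0.87 in NSG WGD+ vehicle to 0.98 in A/J WGD- vehicle tumours, and the low-count Rpl34 runs the other way, from 0.60 in NSG WGD- YM-155 to -0.92 in A/J WGD- vehicle tumours.

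Ribosomal genes outside the symbol rule were read in the same comparisons. Fau, a ubiquitin-like fusion that yields Rps30, was called at 1.28 in WGD- vehicle and 0.92 in WGD+ vehicle tumours. Rps3a1 was called in all 3 settings (0.61, 0.60 and 0.62), and Rack1, a scaffold on the small subunit, in none. Of the paralogues, Rpl22l1, which can replace Rpl22, was 8.69, 9.55 and 8.70 in A/J and 7.30, 7.47 and 7.44 in NSG WGD- vehicle tumours (difference 1.58, SE 0.28), and 1.11 in WGD- YM-155 tumours, both called. Rpl36al (0.81) and the p53 target Rps27l (0.74) were called in WGD- vehicle tumours only among the host settings, and Rps4l was lower in A/J WGD+ vehicle tumours (-1.14).

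Other lists were counted in the same WGD- vehicle comparison, in which 16.2% of all genes were called higher and 18.3% lower. Respiratory chain subunits, which also have short and abundant messages, had 38 of 73 higher and 2 lower (median 0.49), and mitochondrial ribosomal proteins 28 of 77 higher and 3 lower (median 0.36). Among 14 translation factors whose messages carry TOP tracts 6 were higher and none lower (median 0.36). Ribosome biogenesis factors, which make rRNA and assemble subunits, had 4 higher and 8 lower of 25 (median -0.23), so the count higher was near the share over all genes. Genes of G2/M had 12 lower of 15 (median -0.77), and p53 targets 7 higher of 14 (median 0.49).

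Markers of other cells were counted by host as well, against 16.2% of all genes called higher and 18.3% lower in WGD- vehicle tumours. All 5 tested T and cytotoxic lymphocyte markers were higher in A/J WGD- vehicle tumours, where the summed level of the 9 listed was 4.24 to 4.67. It was 0 to 0.20 in NSG, where 7 of 9 were listed at 0 in every library. The 9 summed to at most 0.59 in any NSG library, so a marker could pass the value filter only through A/J libraries. The direction of the 5 was thus fixed in advance. The liver list (Alb, Apoa1, Ttr and others) had 6 of 8 higher, with summed levels of 4.08 to 10.7 in A/J against 0.34 to 2.55 in NSG. Fibroblast markers had 1 of 7 lower, which is not above the share over all genes, and their summed levels overlapped, at 6.85 to 10.9 against 10.2 to 11.1. Endothelial markers had 3 of 5 lower, skeletal muscle markers 3 of 8 lower and mammary epithelial markers 2 of 6 higher, the last summing to 11.2 to 11.6 in A/J and 10.7 to 11.0 in NSG. In WGD+ vehicle tumours lymphocyte markers summed to 2.03 to 3.06 in A/J and 0 in NSG, with none called. Liver markers were not called there either, and 3 of 7 fibroblast markers were lower, against 735 of 13826 genes. In WGD- YM-155 tumours no lymphocyte, liver or fibroblast marker was called. Lymphocyte markers summed there to 1.31 to 4.32 in A/J and 0 to 0.36 in NSG, and fibroblast markers to 7.47 to 8.348 and 8.350 to 10.2, without overlap. Liver markers overlapped, at 1.31 to 7.25 and 0.65 to 1.44. Mammary epithelial markers had 2 of 6 higher in WGD+ vehicle and 3 of 6 in WGD- YM-155 tumours, against 7.20% and 4.77% of all genes. The part of these cells in the members' differences was not tested.

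These differences were recomputed under other scalings. The deposited values are TMM-scaled, and dividing by total reads instead moved the median gene to -0.16, -0.11 and -0.14 in WGD- vehicle, WGD+ vehicle and WGD- YM-155 tumours. Relative to that median the members were at 0.72, 0.50 and 0.51, against 0.74, 0.52 and 0.53 with the deposited scaling. Both scalings divide each library by a single factor, which shifts all but low genes nearly equally. The closeness of these values was therefore fixed in advance and is no test of the difference. Members called higher under total reads were 41, 19 and 13, and the split over all genes turned from 2244 higher and 2524 lower to 1573 and 3432 in WGD- vehicle, from 996 and 735 to 569 and 1282 in WGD+ vehicle and from 659 and 382 to 278 and 940 in WGD- YM-155 tumours. Scaling by the reads outside the members, which takes their own share out of the total, gave 42, 19 and 13.

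Quantile scaling, which gives every library the same distribution and so limits shifts among the most abundant genes, reduced the medians to 0.27, 0.20 and 0.22. Members called higher were then 30, 14 and 7, and 52 of 74 members kept a difference above 0 in WGD- vehicle tumours, against 72 with the deposited scaling. The share of all genes called under quantile scaling is not given here. In WGD- vehicle tumours this scaling called 6 members lower: Rpl34 (-1.14), Rpl29 (-0.63), Rpl32 (-0.48), Rpl4 (-0.41), Rpl10 (-0.34) and Rpl7a (-0.32). Rpl10 was also called lower in A/J WGD+ vehicle tumours, at -0.41. Rpl13a remained called at 0.79, 0.69 and 0.89, and Rps21 at 0.83 in WGD- vehicle tumours. Median differences of the members stayed above 0 under each of these scalings in the 3 host settings.

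**Figure D4:**
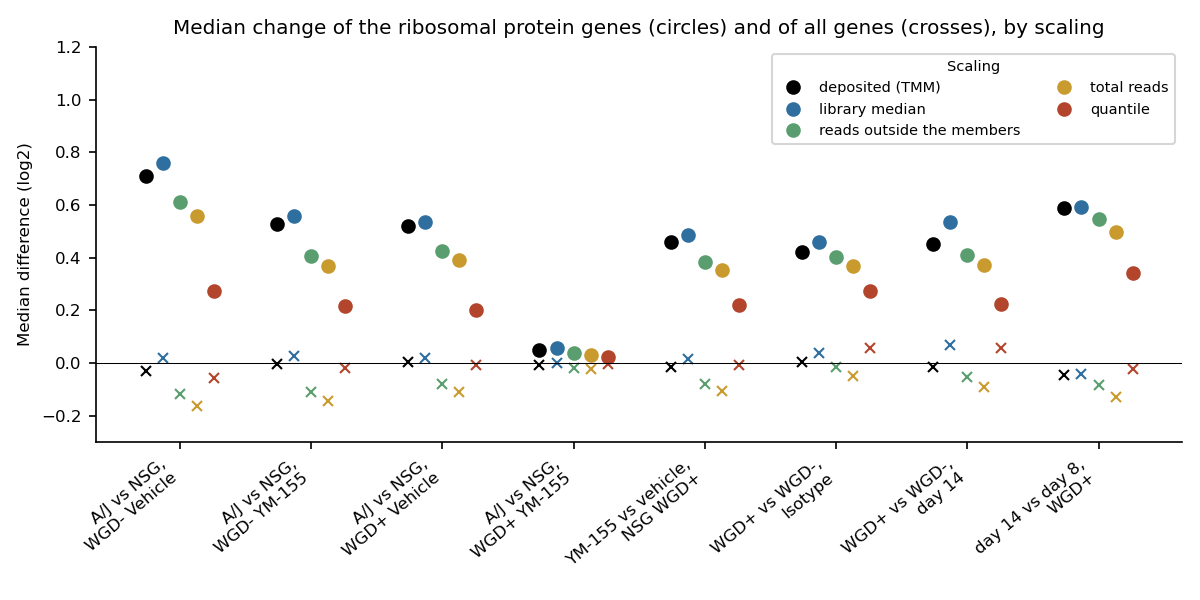
Median difference of the members (circles) and of all genes tested (crosses), in log2 (y axis), under 5 scalings (colours) for 8 comparisons (x axis). Quantile scaling gives the lowest member median in each, for example 0.27 against 0.71 for A/J against NSG in WGD- vehicle tumours.

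YM-155 against vehicle moved few members past the threshold. In A/J WGD- tumours 1 member was called higher, against 2.22% of all genes: Rpl29, at 6.63, 6.85 and 7.07 with YM-155 and 5.79, 6.47 and 6.16 with vehicle (difference 0.71, SE 0.20, adjusted p = 0.049), with no overlap. That call was lost without any 1 of the 6 libraries other than vehicle replicate 3, and under quantile scaling (adjusted p = 0.063). No member was called in A/J WGD+ and NSG WGD- tumours, where 0 of all genes were called, with medians of 0.03 and -0.02. Unadjusted p-values under 0.05 were found for 0 members in either, against 445 and 697 of 13826 genes.

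In NSG WGD+ tumours 73 of 74 members had a difference above 0, with a median of 0.46, and 0 were called (0.00723% of all genes, which is 1 gene, were). An unadjusted p under 0.05 was found for 44 of 74, against 1805 of 13826 genes, and the smallest adjusted p was 0.15. For Rplp2 the 3 YM-155 libraries had 10.38, 10.76 and 10.14 and the vehicle libraries 9.97, 9.78 and 9.46, without overlap (difference 0.69, adjusted p = 0.15). Rpl41 had 10.59, 11.47 and 10.64 against 10.38, 10.11 and 9.84 (0.79, adjusted p = 0.17). For 36 of 74 members no YM-155 library overlapped a vehicle library, all with the higher values under YM-155. The share of all genes without such overlap is not given here, so this count is a description only.

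Whole genome doubling in the YM-155 experiment went with few calls. In A/J vehicle tumours 2 members were lower in WGD+ (4.80% of all genes were), Rps21 and Rpl35. Rps21 was 9.44, 10.07 and 9.59 in WGD+ and 10.19, 10.89 and 10.83 in WGD- (difference -0.94, SE 0.24, adjusted p = 0.018), and Rpl35 was 9.17, 9.59 and 9.30 against 9.80, 10.62 and 9.90 (-0.75, SE 0.22, adjusted p = 0.033). The median member was at -0.15. Both calls were lost when WGD- replicate 2, WGD+ replicate 1 or WGD+ replicate 3 was left out, and 4 members were lower when WGD- replicate 1 or 3 was. The median was 0.06 without WGD- replicate 2 and -0.37 without WGD- replicate 1.

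No member was called in A/J YM-155 (1.69% of all genes) or NSG vehicle tumours (2.85%), where medians were -0.03 and -0.02. There 3 and 2 members had an unadjusted p under 0.05, against 2031 and 2303 of 13826 genes. In NSG YM-155 tumours 1 member was higher in WGD+, against 0.564% of all genes: Rps12, at 10.84, 11.07 and 10.59 against 9.69, 9.96 and 10.27 (difference 0.86, SE 0.19, adjusted p = 0.022), with no overlap. The median member was at 0.44 there, and 45 of 74 had an unadjusted p under 0.05, against 2161 of 13826 genes. Rps12 lost its call under quantile scaling (adjusted p = 0.064) and without WGD- replicate 1 or 2 or WGD+ replicate 1 or 2. The change of the WGD effect between A/J and NSG vehicle tumours gave no call among members or all genes (0%). An unadjusted p under 0.05 was found for 1 member and 1787 of 13826 genes. The members' median was -0.14, which was -0.34 without A/J WGD- replicate 1 and 0.08 without A/J WGD- replicate 2.

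Under isotype antibody 1 member was higher in WGD+ tumours, against 0.434% of all genes. Rps20, of the small-subunit head, was 10.44, 10.52 and 10.55 in WGD+ and 9.92, 9.51 and 9.97 in WGD- libraries (difference 0.70, SE 0.15, adjusted p = 0.036), without overlap, and its call was lost with any of the 6 libraries left out. The median member differed by 0.42, with 73 of 74 above 0. Of the members 44 were under an unadjusted p of 0.05, against 2621 of 13840 genes. Members took 10.5% to 12.0% of reads in WGD+ and 7.71% to 9.94% in WGD- isotype libraries, which did not overlap. Without the stand-apart WGD- isotype replicates 2 and 3, which leaves 1 WGD- isotype library, the median was 0.31. Summed levels of several marker lists were lower in every WGD+ isotype library than in any WGD- one: T and cytotoxic lymphocyte markers summed to 1.26 to 3.98 against 4.97 to 6.31, macrophage markers to 7.74 to 9.32 against 9.54 to 10.7, and fibroblast markers to 8.06 to 9.26 against 9.29 to 10.5. Endothelial markers, at 5.05 to 6.10 against 6.29 to 7.25, and mammary epithelial markers, at 9.96 to 10.5 against 10.8 to 11.5, did not overlap either. Of these lists 1 gene was called, the keratin Krt18 (-1.24, adjusted p = 0.038). Skeletal muscle markers overlapped, at 6.26 to 10.8 in WGD+ and 6.04 to 12.1 in WGD- libraries. The part of these cells in the members' difference was not tested.

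Under anti-PD-L1 no member was called (0.701% of all genes), and the median was 0.27. An unadjusted p under 0.05 was found for 22 of 74 members and 3067 of 13840 genes. Leaving out WGD- replicate 3 gave 12 members higher and a median of 0.36. The share of all genes called in that leave-out is not given here. Removing WGD- replicate 1 lowered the median to 0.16, and removing WGD+ replicate 2 to 0.18. With both stand-apart libraries (WGD- replicates 1 and 2) removed, 1 WGD- library was left and the median was 0.096. Under anti-CD8 no member was called (1.57% of all genes) and the median was 0.05. There the members spread widely: Rps12 differed by 0.72 and Rps14 by -0.75. Rps14 was 10.97, 11.17 and 10.67 in WGD+ and 11.81 and 11.57 in WGD- libraries, which did not overlap (adjusted p = 0.103).

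Against isotype, anti-PD-L1 called no member in WGD- (0.00723% of all genes) or WGD+ tumours (0%), with medians of -0.02 and -0.15. Under an unadjusted p of 0.05 were 0 and 1 members, against 521 and 504 of 13840 genes. Over the leave-outs the WGD+ median ran from -0.25 (without anti-PD-L1 replicate 2) to -0.07 (without anti-PD-L1 replicate 3). Anti-CD8 called none in WGD- (0.00723%) or WGD+ tumours (0%), with medians of -0.0033 and -0.34. Here 2 and 34 members were under an unadjusted p of 0.05, against 1671 and 1041 of 13840 genes. In WGD+ tumours 70 of 74 members had a difference below 0, and the smallest adjusted p was 0.66. Rpl39, a short protein lining the exit tunnel, was 8.33, 8.72 and 8.06 under anti-CD8 and 9.001, 9.64 and 9.04 under isotype, without overlap (difference -0.86). The WGD effect was not shown to differ between anti-CD8 and isotype, with 0 members and 0% of all genes called. An unadjusted p under 0.05 was found for 22 members and 2304 of 13840 genes, and the members' median was -0.38. That median was -0.22 without WGD- isotype replicate 2 and -0.49 without WGD- isotype replicate 3, and the WGD- anti-CD8 group holds 2 libraries. These comparisons share the isotype libraries.

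In the time course members were called in WGD+ tumours between days. At day 14, 27 of 73 members (37.0%) were higher than at day 8, against 7.0% of all genes, and none was lower. The median member differed by 0.59, the median gene by -0.05, and all 73 members had a difference above 0 with the deposited scaling (66 under quantile and 70 under total reads scaling). For 67 of 73 no day 14 library overlapped a day 8 library. The share of all genes without such overlap is not given here. An unadjusted p under 0.05 with limma was found for 61 members and for 4087 of 13478 genes. Members took 12.4%, 11.7% and 10.6% of reads at day 14 and 8.65%, 8.48% and 8.18% at day 8.

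The count rested on single libraries. Leaving out any library but day 8 replicate 2 left 0 members called, and without that one 12 were called. The share of all genes called in that leave-out is not given here. Without the stand-apart day 8 replicate 3 and WGD- day 8 replicate 1 together, 15 members were called higher, against 544 of 13145 genes. The median ranged from 0.56 to 0.63 over the leave-outs. Total reads scaling called 23 members, with the median gene at -0.13 and the members at 0.63 relative to it. That relative value was nearly fixed in advance, as a single factor per library shifts most genes equally. The split of all genes turned from 944 higher and 570 lower to 779 and 884. Quantile scaling called 14, with a median of 0.34, and the share of all genes called under it is not given here.

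Rps29 of the small-subunit head was 9.24, 8.76 and 8.60 at day 14 and 7.88, 7.58 and 7.85 at day 8 (difference 1.10, SE 0.31, adjusted p = 0.040), without overlap. Rps15, near the decoding site, was 11.67, 11.39 and 11.30 against 10.39, 10.50 and 10.28 (1.07, SE 0.22, adjusted p = 0.017). Rpl38, needed for translation of a subset of Hox messages, was 9.58, 9.02 and 8.69 against 8.09, 7.96 and 8.17 (1.03, SE 0.30, adjusted p = 0.047). The stalk protein Rplp2 was 11.18, 10.84 and 10.48 against 9.85, 9.84 and 9.75 (1.03, SE 0.29, adjusted p = 0.041). Rpl36a (0.82), Rpl39 (0.77), Rps26 (0.71), Rpsa (0.62) and Rpl22 (0.61) were called among the members with a named role. Under quantile scaling Rplp2 (0.73, adjusted p = 0.068) and Rpsa (0.46, adjusted p = 0.13) lost the call. With each library left out in turn, Rps15 kept its call in 1 of 6 leave-outs and the other called members named here in 0 of 6. Rpl13a, first between hosts, was not called with the deposited scaling (0.47, adjusted p = 0.12), and Rpl5 and Rpl11 had 0.22 and 0.28.

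Differences were also read against coding length. Among the 24 shortest (75 to 405 bases) 14 were called and the median was 0.81, and among the 24 longest (582 to 1257 bases) 3 were called and the median was 0.41. Spearman's rho between difference and coding length was -0.66 over the 73 members, which share libraries and are not independent, so it is given as a description. Between hosts in WGD- vehicle tumours rho was -0.25, with medians of 0.78 and 0.45 for the 24 shortest and 24 longest. Within libraries, the mean level of the 24 shortest minus that of the 24 longest was -1.29 to -1.01 at day 14 and -1.66 to -1.47 at day 8 in WGD+ tumours, without overlap. It was -1.48 to -1.21 and -1.59 to -1.22 in WGD- tumours, where the days overlapped. The part of message length in the day difference was not tested.

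**Figure D5:**
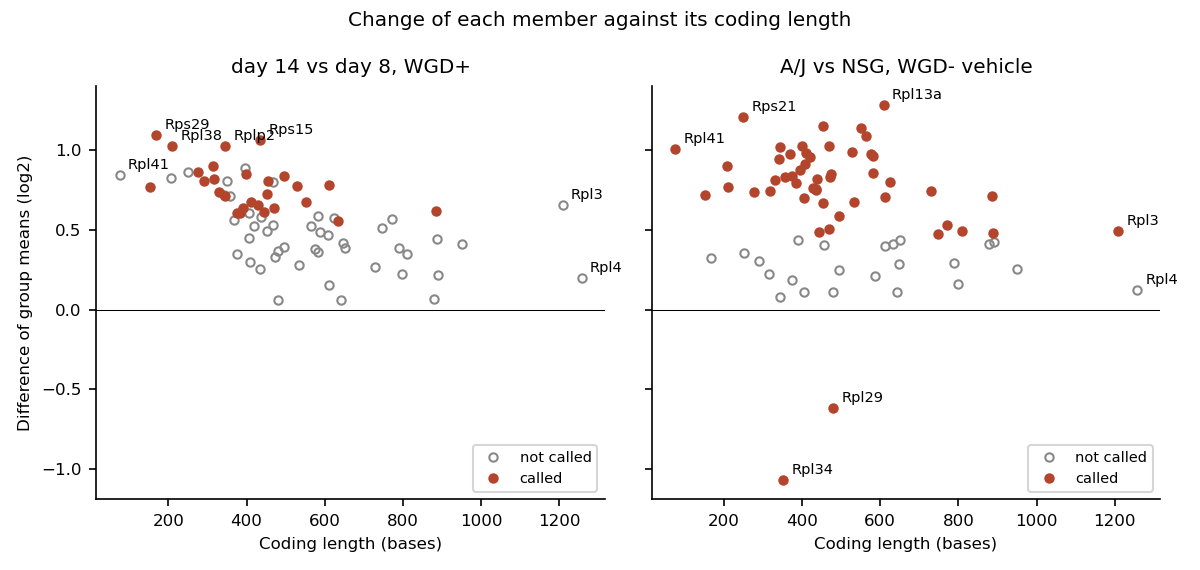
Difference of group means (log2, y axis) of each member against its coding length in bases (x axis), for day 14 against day 8 in WGD+ tumours (left) and A/J against NSG in WGD- vehicle tumours (right), with called members filled. Short members such as Rps29 (1.10) and Rpl38 (1.03) lie highest on the left, while Rpl4, the longest, lies at 0.20.

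Other lists were counted over the same days, between which 7.0% of all genes were called higher. Respiratory chain subunits had 6 of 73 higher, near that share (median 0.23), mitochondrial ribosomal proteins 1 of 77 lower (median 0.05), TOP-bearing translation factors 3 of 14 higher (median 0.27) and ribosome biogenesis factors 0 of 25 called (median -0.22). Rack1 (0.62) and Rps3a1 (0.52) were called higher. Mammary epithelial markers had 2 of 6 higher (median 0.70), with summed levels of 10.3 to 11.0 at day 14 and 9.49 to 10.1 at day 8. None of the lymphocyte, macrophage or fibroblast markers was called in WGD+ tumours, where fibroblast markers summed to 7.96 to 8.75 at day 14 and 7.41 to 10.1 at day 8. Skeletal muscle markers, none of 8 called (median -2.12), summed to 6.40 to 6.99 at day 14 and 6.10, 6.22 and 14.4 at day 8. The muscle paralogue Rpl3l was 0.17, 0.28 and 6.20 at day 8, so the stand-apart replicate 3 was high in it. Without that library the members' median was 0.57 and 0 were called. The part of these cells in the day difference was not tested.

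In WGD- tumours no member was called between days (0.846% of all genes), and the median was -0.01, while 7 of 8 lymphocyte markers were higher at day 14. Members under an unadjusted p of 0.05 numbered 0, against 1412 of 13478 genes. WGD+ against WGD- tumours gave no member at day 8 (3.39% of all genes, median -0.15, or 0.01 without WGD- replicate 3). None was called at day 14 either (0.445%, median 0.45, smallest adjusted p 0.082). Under an unadjusted p of 0.05 were 3 members at day 8 and 44 at day 14, against 2724 and 2232 of 13478 genes. The test of the change in the WGD effect from day 8 to day 14 called 0 members and 3.42% of all genes. All 73 members were above 0, with a median of 0.59. An unadjusted p under 0.05 was found for 41 members and 2911 of 13478 genes. The smallest adjusted p among members for this change was 0.056. Without WGD- day 8 replicate 1, the library with the lowest best correlation in that table, 16 members were called. The share of all genes called in that leave-out is not given here. WGD- day 8 members took 8.34%, 8.45% and 11.4% of reads, so its replicate 3 reached the range of WGD+ day 14.

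Members also differed in how much they varied. In the YM-155 experiment the SD of the 8 group means was largest for Rpl13a (0.59), Rps21 (0.57) and the low-count Rpl34 (0.56), and smallest for Rpl4 (0.10), Rpl10 (0.14) and Rpl7a (0.14), all large-subunit proteins. Over the 6 antibody groups it was largest for Rps29 (0.35), Rps12 (0.33) and Rps20 (0.32) and smallest for Rpl6 (0.10), Rps16 (0.10) and Rpl27 (0.11). Over the 4 time course groups Rps29, Rplp2 and Rpl38 had 0.46 each, and Rpl10 (0.07), Rpl15 (0.08) and Rpl4 (0.08) the least. With the deposited scaling Rpl10 and Rpl4 were thus among the 3 steadiest members in 2 of 3 experiments, and Rps29 was the most variable in 2. Steadiness depends on the scaling. Under quantile scaling Rpl4 (-0.41), Rpl10 (-0.34) and Rpl7a (-0.32) were called lower in A/J than in NSG WGD- vehicle tumours. Rpl4 ranged from 11.04 to 11.64 over the 24 libraries of the YM-155 experiment, and Rpl13a from 10.21 to 12.57.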

How the data were processed

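Per the labels' protocols, 500 ng of purified RNA went into each TruSeq Stranded mRNA library. STAR 2.5.1b, edgeR and the build mm10 stand in the submitters' processing notes, without roles. The counter, its strand setting and its annotation: not given in the sources used here. The authors deposited 3 tables of log2 values, log2(CPM + 1) with TMM scaling, each normalized separately and tested separately. Whole reads were recovered from the steps of these values (100% whole within 0.1 read) and gave the depths and member shares. Rows named as spreadsheet dates (25 to 27 a table) were left out. Differences come from limma 3.58.1 (R 4.3.3) with a mean per group over all groups of a table, trend and robust moderation, and Benjamini-Hochberg adjustment over all genes with a value above 1 in at least 3 libraries, for 23 comparisons and 3 changes of effect; the threshold was 0.05. No count model was used, as the unit is log2; voom on the recovered reads was an alternative. The steps were tested on simulated data. For the day comparison in WGD+ tumours on 13520 genes, 58 of 100 genes changed by a fold of 2 and 100 of 100 changed by a fold of 4 were called. So were 13 unchanged genes. For the host comparison in WGD- vehicle tumours and WGD under isotype, 46 and 65 of 100 were called at a fold of 2, with 9 unchanged genes in each. The simulated libraries shared a fixed dispersion and total-count scaling, with no stand-apart library, so these rates may not hold for the real ones. Members and lists were chosen with earlier results of these data known, so no count supports itself. The text names 24 members of known role, up to 4 called members with the largest change each way per comparison, the 3 most and least variable per table, and tested ribosomal genes outside the rule (some genes under this rule are not reported here); Rpl32 was named after its values were seen. Coordinates and coding lengths are GENCODE M21 (GRCm38), sequences RefSeq GRCm38.p6.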

Additional observations from a re-analysis of the deposited data

How the results depend on the processing

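Limits: groups hold 2 or 3 libraries, so 1 library decides many calls. The shares of all genes called in the leave-outs are not given here. With each library left out in turn, members called ranged from 33 to 57 for A/J against NSG in WGD- vehicle tumours, 2 to 18 in WGD- YM-155 and 4 to 20 in WGD+ vehicle tumours. They ranged from 0 to 12 for day 14 against day 8 in WGD+ tumours, 0 to 16 for the change of the WGD effect between days, 0 to 12 for WGD under anti-PD-L1, 0 to 4 for WGD in A/J vehicle, 0 to 3 in NSG YM-155 and 0 to 1 under anti-CD8, 0 to 1 for YM-155 in A/J WGD-, and 0 for WGD under isotype. Of 50 calls under the naming rule 13 held with each library left out, and 428 of 541 held under the other settings; the cause of the losses was not tested. 

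Counts that moved by over 1.5 times were as follows, higher and lower together, without the shares of all genes called beside them. Without the filter on low values, which tests more genes, A/J against NSG gave 6 (WGD- YM-155) and 9 (WGD+ vehicle), day 14 against day 8 in WGD+ gave 12, and WGD in A/J vehicle, NSG YM-155 and isotype and YM-155 in A/J WGD- gave 0. Quantile scaling gave 7 for A/J against NSG in WGD- YM-155, 14 for the day comparison, 4 for WGD in A/J vehicle and 4 under anti-CD8, and 0 for WGD in NSG YM-155 and YM-155 in A/J WGD-; it turned Rpl3 to -0.0051 and Rps6 to -0.0092 between hosts in WGD- vehicle tumours. Total reads and reads outside the members gave 13 each for A/J against NSG in WGD- YM-155, and 2 and 4 for WGD under isotype. Fitting only the groups compared gave 29 (host, WGD- vehicle), 48 (host, WGD+ vehicle), 57 (day, WGD+), 8 (WGD, NSG vehicle), 6 (WGD, anti-CD8), 1 (WGD, day 14), and 0 for WGD in A/J vehicle, isotype and YM-155 in A/J WGD-. Library median scaling gave 1 for the change of the WGD effect between days and 0 for YM-155 in A/J WGD-, where a pseudocount of 5 and voom gave 0 too; voom gave 0 for WGD under isotype. Without the libraries that stand apart, chosen after seeing the data, the counts were 1 for WGD in A/J vehicle, 0 for YM-155 in A/J WGD-, 0 for WGD under isotype, 15 for the day comparison and 5 for the change of the WGD effect between days. Replicate numbers are shared between groups, but no comparison with 3 pairs had every pair's correlation above 0.1. Samples were therefore treated as unpaired, which does not exclude pairing. Of the comparisons with 2 pairs, WGD under anti-CD8 had 0.40 and 0.46, and anti-CD8 against isotype in WGD- tumours had -0.15 and -0.08. With a replicate block the day comparison called 6 and WGD under isotype 0, and other counts stayed within 1.5 times.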
